A study of Mus musculus with 16 samples.

Results

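The genes of unsaturated fatty acid oxidation and electron transfer (Eci1, Eci2, Decr1, Ech1, Etfa, Etfb and Etfdh) were followed in quadriceps, a fast skeletal muscle of the thigh. They were chosen by symbol, as the rows of the expression table that carry these names, and made up 7 of the 23970 symbols in it. All 7 had a mean of at least 0.5 FPKM (sequenced fragments scaled for the length of the transcript and the size of the library) over the 16 libraries and were among the 11256 genes tested. The study asked how a high-fat diet and a bout of exhaustive running change the muscle transcriptome. RNA-seq libraries came from 4 groups of 4 mice, which the series describes as biological replicates. All were male C57BL/6NTac wild type mice aged 16 weeks. The control diet (CON) held 10% of its kcal as fat and the high-fat diet (HFD) 60%, each fed for 10 weeks. The pre groups (CON-pre and HFD-pre) were sampled at rest, and the post groups (CON-post and HFD-post) were different mice sampled 3 h after a maximal treadmill test. Every group was acclimatized to the treadmill and fasted for 3 h, and the post mice had water but no food after the run.

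Fatty acids are broken down in mitochondria by beta-oxidation, which acts directly on saturated chains. Chains with cis bonds need auxiliary enzymes that move or reduce the bonds before the cycle can go on: the enoyl-CoA isomerases encoded by Eci1 and Eci2, the dienoyl-CoA reductase encoded by Decr1 and the dienoyl-CoA isomerase encoded by Ech1. The acyl-CoA dehydrogenases that open each cycle hand their electrons to electron transfer flavoprotein (ETF), a heterodimer of the products of Etfa and Etfb. ETF dehydrogenase, encoded by Etfdh, then passes the electrons to coenzyme Q in the inner membrane, where they enter the respiratory chain.

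In the mouse genome GRCm38 (RefSeq annotation), Ech1 lies on chromosome 7 (28825338 to 28832239), as does Etfb (43444072 to 43457800). Decr1 lies on chromosome 4 (15917240 to 15945377), Eci1 on chromosome 17 (24426683 to 24439316), Eci2 on chromosome 13 (34977748 to 35027115), Etfa on chromosome 9 (55454436 to 55512243) and Etfdh on chromosome 3 (79603788 to 79628767). In this annotation Etfdh overlaps Ppid, Etfb overlaps Cldnd2 and Mir7051, Eci2 overlaps Gm16984 and Gm46408, and Decr1 overlaps Mir6400, and although the libraries were stranded, whether strand was used in counting is not given in the sources used here. Promoters matched for 6 of the 7 genes, without Decr1. The promoters of Ech1, which differed most between diets, and of the 3 electron transfer genes are shown as the 250 bases before the annotated start, 5′ to 3′ on the gene's strand. The bases that follow the annotated start were found in GENCODE transcripts for 5 of the 6 promoters and not for Etfb, so the start of Etfb and positions read from it are less sure. The Eci2 promoter (34994145 to 34994394, minus strand) lay inside the span of the gene given above, so it is not that of the outermost start. Capitals mark the letters that matched 1 of the motifs searched:
Ech1, chr7:28825088-28825337, plus strand: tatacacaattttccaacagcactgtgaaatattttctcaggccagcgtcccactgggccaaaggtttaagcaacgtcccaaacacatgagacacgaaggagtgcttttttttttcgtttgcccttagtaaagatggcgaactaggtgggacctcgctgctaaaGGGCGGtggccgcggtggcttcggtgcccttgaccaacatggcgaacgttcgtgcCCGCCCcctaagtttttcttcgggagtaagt
Etfa, chr9:55512244-55512493, minus strand: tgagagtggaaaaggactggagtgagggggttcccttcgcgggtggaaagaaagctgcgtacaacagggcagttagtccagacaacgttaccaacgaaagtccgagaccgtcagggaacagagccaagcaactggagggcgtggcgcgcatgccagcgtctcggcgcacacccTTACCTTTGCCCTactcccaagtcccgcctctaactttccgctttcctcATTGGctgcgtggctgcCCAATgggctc
Etfb, chr7:43443822-43444071, plus strand: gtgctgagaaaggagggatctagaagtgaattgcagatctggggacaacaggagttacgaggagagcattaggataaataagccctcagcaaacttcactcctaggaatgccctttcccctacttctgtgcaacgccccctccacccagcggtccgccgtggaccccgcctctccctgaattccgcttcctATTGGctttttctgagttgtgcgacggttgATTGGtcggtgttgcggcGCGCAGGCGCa
Etfdh, chr3:79628768-79629017, minus strand: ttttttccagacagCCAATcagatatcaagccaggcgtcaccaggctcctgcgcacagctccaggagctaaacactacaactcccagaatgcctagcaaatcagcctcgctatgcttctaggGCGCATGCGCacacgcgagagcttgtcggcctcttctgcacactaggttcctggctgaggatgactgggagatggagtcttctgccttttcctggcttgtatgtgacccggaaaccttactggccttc

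The motifs were picked after the sequences had been seen and were read on both strands. A direct repeat of the kind bound by PPAR and RXR (AGGTCANAGGTCA, up to 2 mismatches) matched in Etfa, at bases -77 to -65 from the start, and 3.24% of the 32851 mouse promoters of the same length held it. The motif of the respiratory gene activator NRF1 (GCGCATGCGC, up to 1 mismatch) matched in Etfdh without a mismatch at -128 to -119 and in Etfb with 1 mismatch at -11 to -2, against 5.2% of all promoters. The AAGGTCA site of the oestrogen-related receptors was in none of the 6 promoters and in 4.08% of all. The CCAAT box was in 4 of the 6 (Etfdh, Etfb, Etfa and Eci2, against 33.8% of all) and the GC box GGGCGG in 3 of the 6 (Ech1, Eci2 and Eci1, against 32.7%). A match describes the letters only and is no evidence of binding.

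The FPKM of a library summed to 283575 to 329282, the correlation between libraries was 0.966 to 0.984 on the log2 scale, and the depth of libraries relative to CON-pre 1, read from genes with at most 0.5 FPKM, was 0.830 to 1.15. The absolute depth of the libraries is not known from FPKM. The 13 muscle markers, among them Ckm and Myh4, summed to 78214 to 109622 FPKM, and none of them was at 0 throughout a group. In bulk muscle, fewer cells of a type and less RNA per cell cannot be told apart.

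The 7 genes were well expressed. Over the 16 libraries, Ech1 averaged 150 FPKM (204th of all symbols), Etfb 122, Eci1 62.1, Etfdh 61.7, Etfa 49.9, Decr1 39.2 and Eci2 29.8 FPKM (1223rd). In CON-pre, Etfb (103 ± 12.1, SD, n = 4) and Ech1 (99.9 ± 8.95) overlapped in their libraries. Eci1 (51.3 ± 8.61), Etfdh (47.1 ± 3.12) and Etfa (40.9 ± 5.74) lay below them, where Eci1 overlapped with Etfdh and Etfdh with Etfa, as did Decr1 (28.6 ± 1.89) with Eci2 (25.8 ± 1.28) at the bottom. In HFD-pre the order changed at the top, where the lowest Ech1 library (170.6 FPKM) was above the highest Etfb library (139 FPKM). The coefficient of variation within a group was 3.71% to 19.7% for the 7 genes, with a median of 9.12% against 12.8% for all genes tested. The 7 genes stood at percentiles 89.1 to 98.2 of mean level among genes tested, and these medians were not matched for level.

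HFD up-regulated 3 of the 7 genes at rest. Ech1 was 1.83-fold, Decr1 1.64-fold and Eci2 1.23-fold up in HFD-pre relative to CON-pre, while Etfdh was 1.39-fold higher and missed the threshold. A gene was called a differentially expressed gene (DEG) at a limma adjusted p under 0.05 over the 11256 genes, a call that 0.240% of all genes reached as higher in HFD-pre. The HFD-pre mean was the higher for all 7 genes. Their median log2 fold change was 0.30, against -0.034 over all genes tested, and 6 of the 7 had an unadjusted p under 0.05, against 2.50% of all genes in that direction.

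Ech1, the dienoyl-CoA isomerase, had 92.3, 92.6, 110 and 105 FPKM in the 4 CON-pre libraries and 188, 173, 170.6 and 201 FPKM in the HFD-pre libraries. The groups did not overlap, and the HFD-pre libraries lay far above every CON-pre library. The log2 fold change was 0.87 (SE 0.10, 95% interval 0.66 to 1.09, adjusted p = 0.00109), and Ech1 had the 2nd lowest p of all genes tested. Decr1, the dienoyl-CoA reductase, had 25.7, 29.6, 29.2 and 29.7 FPKM in CON-pre and 49.8, 41.8, 42.6 and 55.1 FPKM in HFD-pre. The CON-pre libraries were close together and the HFD-pre libraries were spread more widely above them. The log2 fold change of Decr1 was 0.71 (SE 0.11, 95% interval 0.48 to 0.94, adjusted p = 0.00655).

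**Figure D1:**
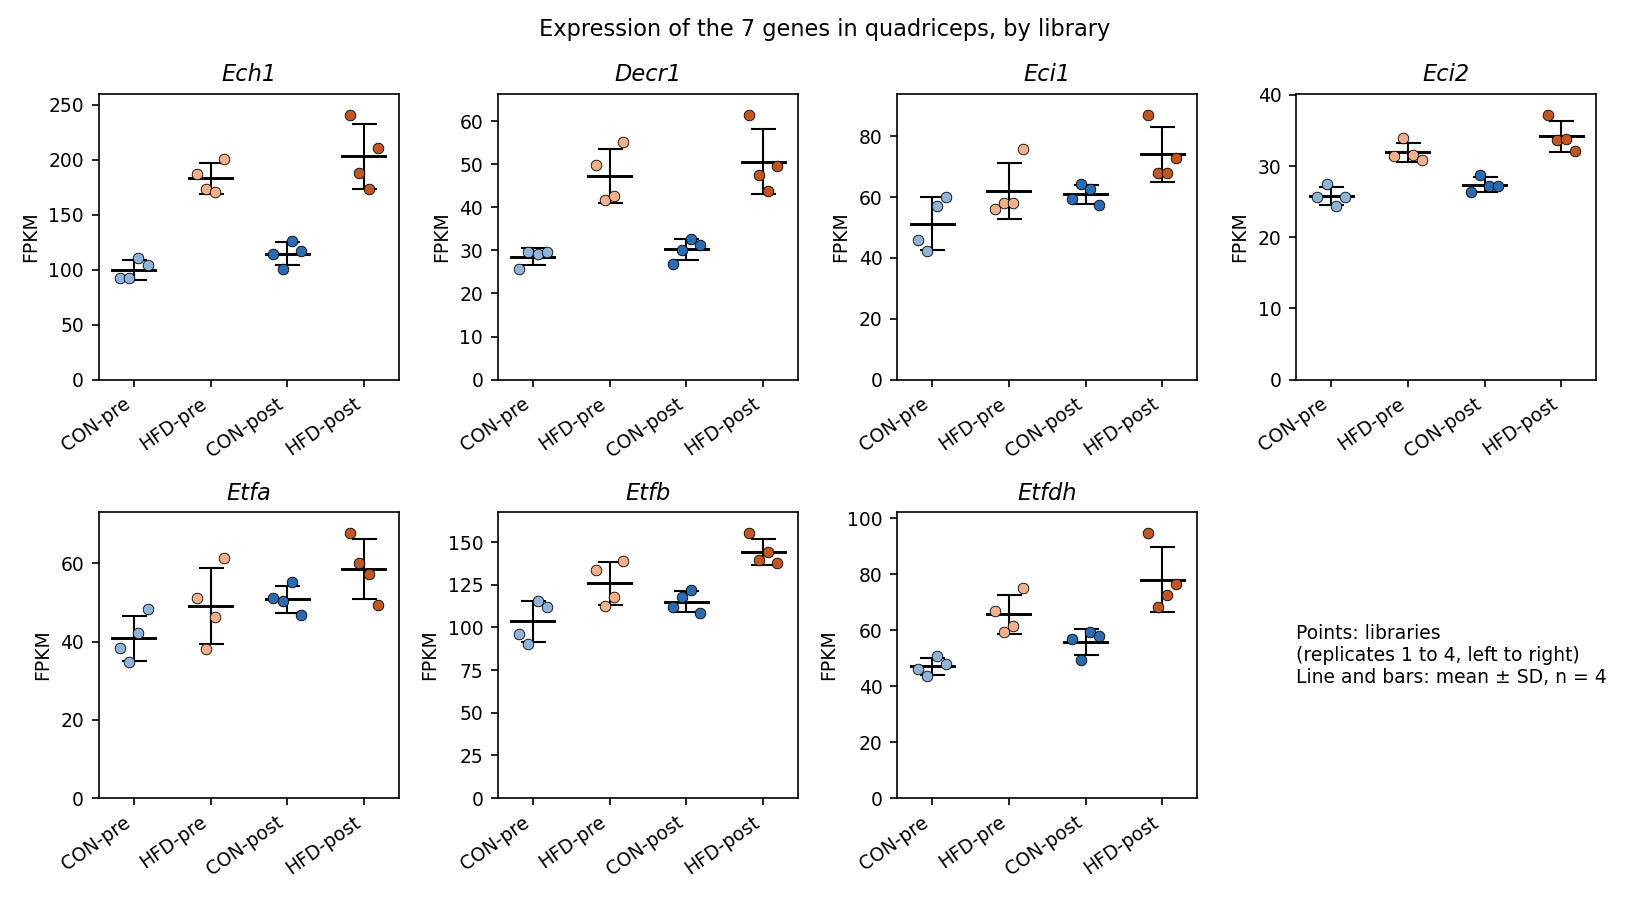
Expression in FPKM (y axes from 0) of the 7 genes in the 4 groups, with a point for each library and the mean ± SD (n = 4) as a line with bars. For Ech1, Decr1 and Eci2 all 8 HFD libraries sit above all 8 CON libraries, while for the other 4 genes some HFD library lies at or below a CON library, and HFD-post replicate 1 is the highest point of its group in all 7 panels.

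The enoyl-CoA isomerases differed less. Eci2, which acts in mitochondria and peroxisomes, had 25.7, 27.5, 24.4 and 25.7 FPKM in CON-pre and 31.4, 33.9, 31.6 and 30.9 FPKM in HFD-pre. The groups did not overlap, and both were narrow. The log2 fold change was 0.30 (SE 0.062, adjusted p = 0.0466), a call close to the threshold that held under 11 of 31 alternative settings, with adjusted p between 0.0142 and 0.179. It was lost in 14 of the 16 fits that left out 1 library, all but those without CON-post replicate 1 or HFD-post replicate 1. For Eci2, 5.74% of the 50-base windows of its transcripts also occurred in transcripts of other genes, among them its paralog Eci3, so a part of its FPKM is uncertain. Eci1, the mitochondrial isomerase, had 45.9, 42.2, 57.0 and 60.1 FPKM in CON-pre and 56.1, 58.2, 58.1 and 75.7 FPKM in HFD-pre. These groups overlapped, and the difference of 0.28 (SE 0.12) did not pass the test (adjusted p = 0.545) and was 0.18 without HFD-pre replicate 4.

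Among the electron transfer genes, Etfdh differed most. ETF dehydrogenase had 46.2, 43.5, 50.9 and 47.8 FPKM in CON-pre and 66.9, 59.2, 61.5 and 75.1 FPKM in HFD-pre. The groups did not overlap, yet the log2 fold change of 0.47 (SE 0.10) had an adjusted p of 0.0582, and 0.0175 without HFD-post replicate 1. Etfdh was also called with array weights (adjusted p = 0.0265) and with an adipocyte score (adjusted p = 0.0494) or a slow-fibre score (adjusted p = 0.0184) as a covariate. These were among the 6 of 31 alternative settings that called it, with adjusted p between 0.0175 and 0.189 over the 31. For Etfb, the smaller ETF subunit, the libraries held 96.1, 90.5, 115 and 112 FPKM in CON-pre and 134, 113, 118 and 139 FPKM in HFD-pre. Etfa, the larger subunit, had 38.4, 34.8, 42.1 and 48.2 FPKM in CON-pre and 51.2, 38.1, 46.2 and 61.3 FPKM in HFD-pre. For both subunits the groups overlapped, with log2 fold changes of 0.28 (SE 0.086, adjusted p = 0.293) for Etfb and 0.25 (SE 0.13, adjusted p = 0.647) for Etfa. Without HFD-pre replicate 4 the value for Etfa was 0.14. In all, 4 of the 7 genes had every HFD-pre library above every CON-pre library, against 1.68% of all genes tested.

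The comparison of diets 3 h post-exercise used other mice and gave fold changes of like size. HFD up-regulated 2 of the 7 genes, Ech1 and Decr1, where 0.124% of all genes were called higher in HFD-post. All 7 genes again had the higher mean in HFD-post, with a median log2 fold change of 0.32 against 0.0038 over all genes, and 6 of the 7 had an unadjusted p under 0.05, against 3.12% of all genes in that direction. The 2 diet comparisons share no library, although they share the estimate of the spread.

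Ech1 had 114.7, 100.6, 126 and 117 FPKM in CON-post and 241, 188, 173 and 211 FPKM in HFD-post. The HFD-post libraries were all above CON-post, with replicate 1 standing highest. Its log2 fold change was 0.82 (SE 0.10, 95% interval 0.60 to 1.03, adjusted p = 0.00172). Decr1 had 26.8, 30.1, 32.7 and 31.3 FPKM in CON-post and 61.5, 47.6, 43.8 and 49.6 FPKM in HFD-post. The groups did not overlap and HFD-post replicate 1 was again the highest. Its log2 fold change was 0.73 (SE 0.11, 95% interval 0.50 to 0.96, adjusted p = 0.00893). Without HFD-post replicate 1 the log2 fold changes were 0.73 for Ech1 (adjusted p = 0.00404) and 0.63 for Decr1 (adjusted p = 0.0190). With only these 2 groups in the fit, and so fewer libraries behind the spread, both calls were lost (adjusted p = 0.109 for each). That fit called 2 of the 11256 genes higher, against 14 in the main fit.

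Eci2 had 26.4, 28.8, 27.3 and 27.2 FPKM in CON-post and 37.2, 33.6, 33.8 and 32.1 FPKM in HFD-post. Its groups did not overlap, but its log2 fold change of 0.31 (SE 0.062) had an adjusted p of 0.0626. Eci2 was called here under 1 of 31 alternative settings, that with no filter on low values (adjusted p = 0.0490). Eci1 had 59.3, 64.4, 62.7 and 57.5 FPKM in CON-post and 87.1, 68.0, 68.0 and 72.9 FPKM in HFD-post. These groups did not overlap either, although the log2 fold change of Eci1 was only 0.27 (adjusted p = 0.738).

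Etfdh had 56.8, 49.2, 59.2 and 57.9 FPKM in CON-post and 94.7, 68.4, 72.5 and 76.6 FPKM in HFD-post, with a log2 fold change of 0.47 (SE 0.10, adjusted p = 0.0868). Etfb had 112, 118, 122 and 109 FPKM in CON-post and 155, 139, 144 and 138 FPKM in HFD-post, with a log2 fold change of 0.32 (adjusted p = 0.248). Neither of these genes overlapped between the groups. Etfa had 51.1, 50.3, 55.2 and 46.8 FPKM in CON-post and 67.7, 59.9995, 57.2 and 49.3 FPKM in HFD-post. It was the gene of the 7 whose groups overlapped here, with a log2 fold change of 0.20 (adjusted p = 0.925), which was 0.12 without HFD-post replicate 1. Thus 6 of the 7 genes had every HFD-post library above every CON-post library, against 1.88% of all genes tested.

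**Figure D2:**
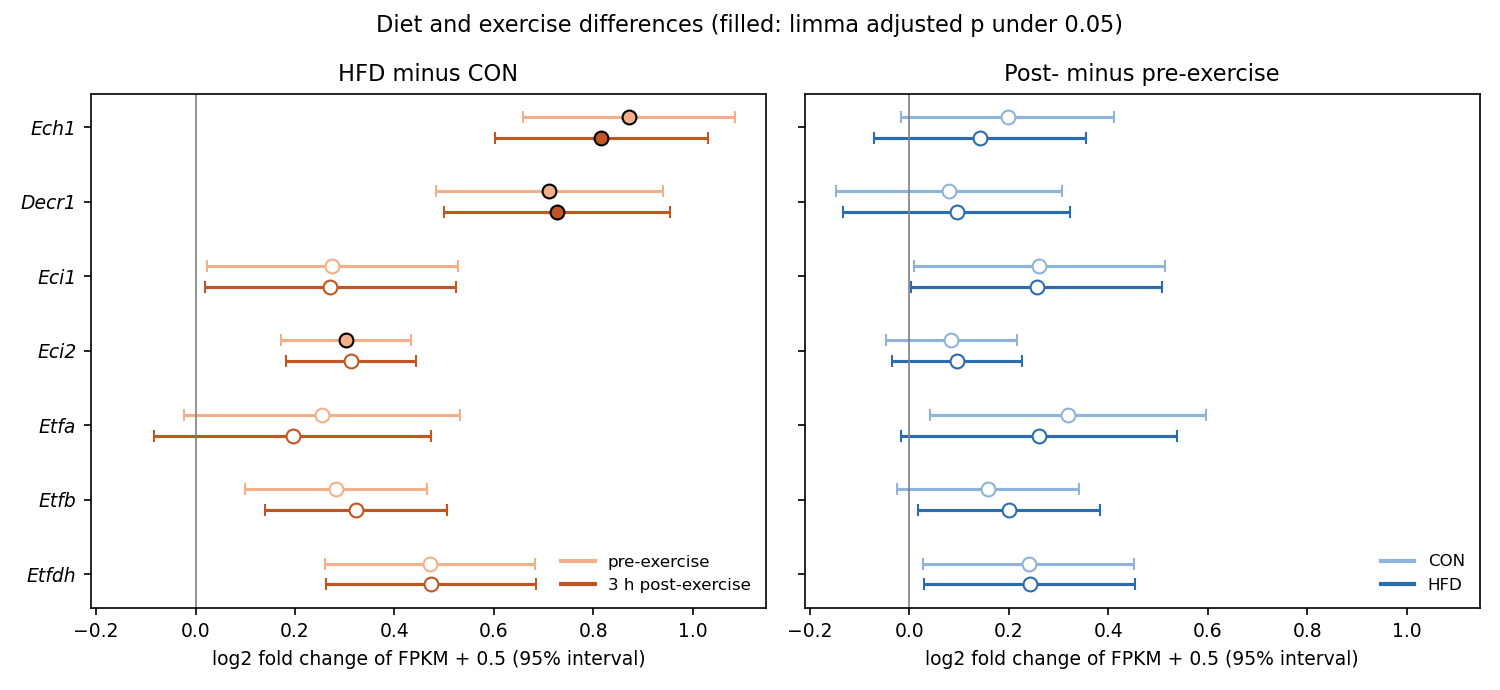
Log2 fold changes of FPKM + 0.5 (x axis) with 95% intervals for each gene, for HFD minus CON (left, pre and 3 h post-exercise) and for post minus pre (right, CON and HFD). Filled points passed the test; Ech1 and Decr1 lie at 0.71 to 0.87 in both diet comparisons, and no exercise point is filled.

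When the diet difference was averaged over pre and post, 5 of the 7 genes were DEG, against 0.489% of all genes called higher in HFD. Ech1 had a log2 fold change of 0.84 (SE 0.071, adjusted p = 1.47e-05), the lowest p of all genes tested. Decr1 followed with 0.72 (SE 0.076, adjusted p = 0.000160), Etfdh with 0.47 (SE 0.071, adjusted p = 0.00178), Eci2 with 0.31 (SE 0.044, adjusted p = 0.00111) and Etfb with 0.30 (SE 0.061, adjusted p = 0.0209). The call for Etfb was lost without CON-pre replicate 1 (adjusted p = 0.0571) or without HFD-pre replicate 1 (adjusted p = 0.0572). Eci1 (0.27, adjusted p = 0.186) and Etfa (0.22, adjusted p = 0.381) did not pass. These averaged values come from the same libraries as the separate diet comparisons and are not further evidence.

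Over all libraries, 3 of the 4 auxiliary enzymes had no overlap between diets. The lowest HFD library of Ech1 had 170.6 FPKM and the highest CON library 126 FPKM, and these values were 41.8 and 32.7 FPKM for Decr1 and 30.9 and 28.8 FPKM for Eci2. All 8 HFD libraries were above all 8 CON libraries for these 3 genes, against 0.249% of all genes tested. For Etfdh 7 of 8 HFD libraries exceeded every CON library, for Etfb 6, for Eci1 5 and for Etfa 4.

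Exercise changed none of the 7 genes past the threshold on either diet. In CON-post against CON-pre, 0 of 7 were DEG in limma, against 0.968% of all genes called higher, and 3 (Etfa, Etfdh and Eci1) had an unadjusted p under 0.05, against 6.13% of all genes with such a p and a higher mean after exercise. All 7 means were higher in CON-post, with log2 fold changes of 0.32 (95% interval 0.04 to 0.60) for Etfa, 0.26 for Eci1, 0.24 for Etfdh, 0.20 for Ech1, 0.16 for Etfb, 0.084 for Eci2 and 0.079 for Decr1 (adjusted p 0.365 to 0.840). Each of the 7 overlapped between the groups, where 3.29% of all genes had every CON-post library above every CON-pre library. Decr1 was 0.031 without CON-pre replicate 1, and 0.031 to 0.13 over the fits without 1 library, where CON-post replicates 1 and 3 also moved it by more than 1.5 times. Without CON-pre replicate 2, Eci1 was 0.17 and Etfb 0.097. This comparison shares the CON-pre libraries with the diet comparison at rest.

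On HFD the values were of the same order. In HFD-post against HFD-pre, 0 of 7 were DEG in limma, against 0.489% of all genes called higher, and 3 (Etfdh, Etfb and Eci1) had an unadjusted p under 0.05, against 8.50% of all genes in that direction. The log2 fold changes were 0.26 for Etfa, 0.26 for Eci1, 0.24 for Etfdh, 0.20 for Etfb, 0.14 for Ech1, 0.095 for Decr1 and 0.095 for Eci2 (adjusted p 0.347 to 0.780). The groups overlapped for all 7, where 4.72% of all genes did not overlap in this direction. Without HFD-post replicate 1, the log2 fold change of Ech1 was 0.056 and that of Decr1 -0.0015, with 0.15 for Etfdh and 0.054 for Eci2. Over the fits without 1 library Ech1 was 0.056 to 0.22, Decr1 -0.0015 to 0.17 and Etfa 0.15 to 0.37, where the lowest value of Etfa came without HFD-pre replicate 2. Replicates 2, 3 and 4 of HFD-pre also moved Decr1 by more than 1.5 times, and HFD-post replicate 3 moved Decr1 and Ech1 so.

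Averaged over the diets, 0 of 7 genes were DEG after exercise in limma, against 2.95% of all genes called higher, while 5 of the 7 had an unadjusted p under 0.05, against 11.7% of all genes in that direction. The electron transfer genes and Eci1 led, with 0.29 for Etfa (SE 0.093, adjusted p = 0.0975), 0.26 for Eci1 (SE 0.084, adjusted p = 0.103), 0.24 for Etfdh (SE 0.071, adjusted p = 0.0711) and 0.18 for Etfb (SE 0.061, adjusted p = 0.122). Ech1 (0.17), Eci2 (0.090) and Decr1 (0.087) differed least, and Decr1 was 0.039 without HFD-post replicate 1. Leaving out HFD-pre replicate 4, the highest HFD-pre library for 6 of the 7 genes, brought 3 of the 7 past the threshold. These were Etfa (0.35, adjusted p = 0.0341), Eci1 (0.31, adjusted p = 0.0377) and Etfdh (0.27, adjusted p = 0.0377). That fit called 391 of the 11256 genes higher, against 332 in the main fit. Eci1 also passed without CON-pre replicate 4 (adjusted p = 0.0492) and Etfdh without CON-post replicate 2 (adjusted p = 0.0463).

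The diet difference was not detectably altered by exercise. The interaction of diet and exercise had log2 values of -0.059 (Etfa) to 0.041 (Etfb), and 0 of 7 genes passed in limma (adjusted p = 1.00 for each), nor did any reach an unadjusted p under 0.05. Of all genes, 0% passed the test and 3.16% had an unadjusted p under 0.05. The intervals remained wide, from -0.36 to 0.25 for Ech1, from -0.31 to 0.34 for Decr1 and from -0.45 to 0.33 for Etfa. Interactions inside these limits were not excluded with 4 mice per group.

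Ratios between genes of a library do not depend on how libraries were scaled. The ratio of Etfb to Etfa FPKM, the subunits of the ETF heterodimer, was 2.54 ± 0.174 in CON-pre, 2.59 ± 0.281 in HFD-pre, 2.27 ± 0.0759 in CON-post and 2.48 ± 0.231 in HFD-post (mean ± SD, n = 4). The ratio of Etfdh to Etfa was 1.16 ± 0.117 in CON-pre, 1.35 ± 0.140 in HFD-pre, 1.10 ± 0.107 in CON-post and 1.34 ± 0.177 in HFD-post, with the higher mean on HFD in both states. The ratio of Eci1 to Eci2 was 2.00 ± 0.404, 1.95 ± 0.341, 2.23 ± 0.0771 and 2.16 ± 0.168 in the same order of groups, and that of Ech1 to Decr1 was 3.50 ± 0.271, 3.89 ± 0.227, 3.81 ± 0.384 and 4.02 ± 0.157. None of 16 exact two-sided permutation tests on the log2 ratios passed after Benjamini-Hochberg adjustment, the lowest being p = 0.0571 (adjusted p = 0.229). It was reached by Etfdh/Etfa in both diet comparisons, by Ech1/Decr1 at rest and by Etfb/Etfa for CON-post against CON-pre. The smallest p that 4 against 4 libraries can give is 0.0286, so that an adjusted p under 0.05 would have needed 10 of the 16 tests at that value, and these tests say little about whether the ratios differ.

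The 7 genes varied together from library to library. Over the 16 libraries, Pearson's r between pairs of the genes was 0.511 to 0.971 with a median of 0.850, which includes the differences between groups, and all values of a library share its depth and RNA. After group means were removed, r was -0.253 to 0.903 with a median of 0.619. Ech1 and Etfdh (r = 0.903) and Etfa and Etfb (r = 0.862) were closest within groups. Eci2 stood apart, with a within-group r of -0.253 to 0.205 with the other 6 genes. HFD-post replicate 1 was the highest of its group for 7 of 7 genes, HFD-pre replicate 4 of its group for 6 and CON-post replicate 3 of its group for 5.

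A list of 26 mitochondrial genes outside fatty acid oxidation, among them Cs (citrate synthase) and Atp5a1 (an ATP synthase subunit), moved with the 7 genes between libraries of a group but little between diets. The score of the 7 genes, the mean of their centred log2 values, was -0.32 in CON-pre, 0.13 in HFD-pre, -0.13 in CON-post and 0.32 in HFD-post, and that of the mitochondrial list was -0.056, -0.018, 0.017 and 0.058. The scores correlated with r = 0.659 over the 16 libraries and 0.894 within groups. None of the 26 genes was called between diets in limma (2 at rest and 0 post-exercise had an unadjusted p under 0.05), with median log2 fold changes of 0.043 and 0.036. With this score as a covariate, the diet difference at rest was 0.83 for Ech1 (adjusted p = 0.000176) and 0.67 for Decr1 (adjusted p = 0.00342), and Etfdh (0.43, adjusted p = 0.0295) and Etfb (0.23, adjusted p = 0.04998) fell just under the threshold beside Eci2. With this covariate the exercise difference averaged over diets was smaller for 6 of the 7 genes, all but Eci2 (0.10). Etfa had 0.13, Eci1 0.11, Etfdh 0.15, Etfb 0.077, Ech1 0.084 and Decr1 0.0033, and the mean score of the mitochondrial list was higher post-exercise on each diet.

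**Figure D3:**
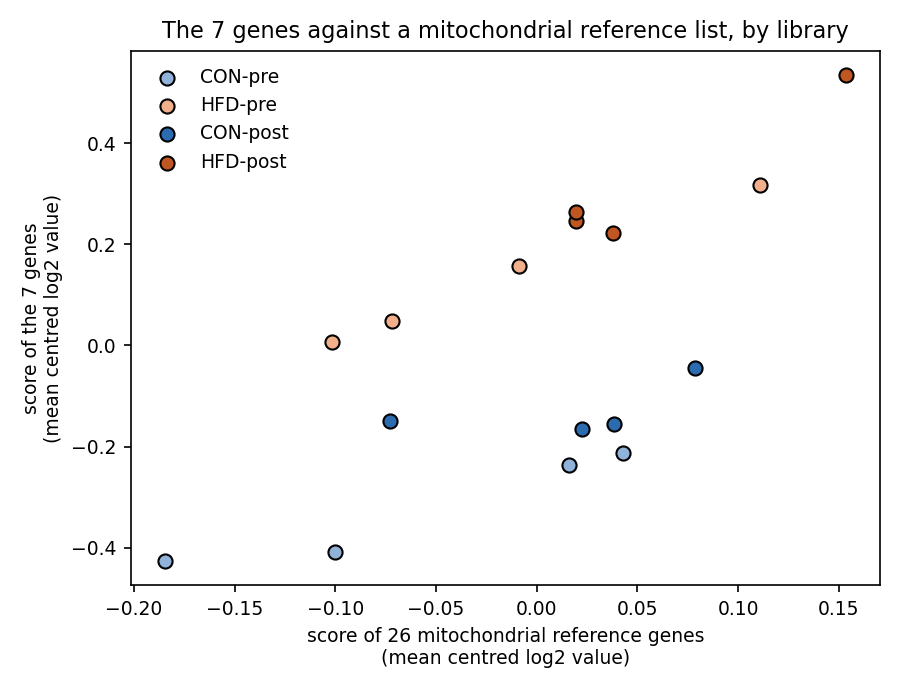
Score of the 7 genes (y axis, mean centred log2 value) against the score of 26 mitochondrial reference genes (x axis, same unit), with a point for each of the 16 libraries coloured by group. Points of a group run upwards together (within-group r = 0.894), and the HFD points lie above the CON points at like values of the mitochondrial score.

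Genes that share the pathway were described by 8 further lists. Of all genes, 8.25% at rest and 6.29% post-exercise had an unadjusted p under 0.05 between diets in either direction, the shares to set beside such counts in these lists and in the marker lists. Of 12 acyl-CoA dehydrogenases and relatives, the donors of electrons to ETF, 3 were DEG in HFD-pre, all of them higher, against 0.240% of all genes called higher, and 6 of the 12 had the higher mean in HFD-pre. Acadl (long-chain) had a log2 fold change of 0.77 (adjusted p = 0.00109), Acadvl (very long-chain) 0.51 (adjusted p = 0.0300) and Acadm (medium-chain) 0.43 (adjusted p = 0.0138). Acads (short-chain) had 0.33 and did not pass (adjusted p = 0.238). The list's median was 0.059 and its lowest value -0.27. Post-exercise, Acadl (0.60, adjusted p = 0.00883) and Acadm (0.39, adjusted p = 0.0497) remained DEG between diets, against 0.124% of all genes called higher. Acadl was also the member that rose with exercise, by 0.29 averaged over diets (adjusted p = 0.0126).

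Of 11 genes of the beta-oxidation spiral and carnitine shuttle, 5 were DEG in HFD-pre, all of them higher, against 0.240% of all genes. Of the 11 genes, 9 had the higher mean in HFD-pre, with a list median of 0.34 and a lowest value of -0.096. They were Slc25a20 (the carnitine-acylcarnitine carrier, 0.63, adjusted p = 0.00440), Hadha (the trifunctional enzyme's alpha subunit, 0.53, adjusted p = 0.00837), Acaa2 (a thiolase, 0.65, adjusted p = 0.0355), Cpt2 (carnitine palmitoyltransferase of the inner membrane, 0.40, adjusted p = 0.0392) and Crat. In the post-exercise comparison Cpt2 (0.52, adjusted p = 0.0103) and Slc25a20 (0.55, adjusted p = 0.0216) passed, against 0.124% of all genes, and averaged over exercise states 8 of the 11 did, against 0.489%. Slc25a20 also rose with exercise, by 0.26 averaged over diets (adjusted p = 0.0332).

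**Figure D4:**
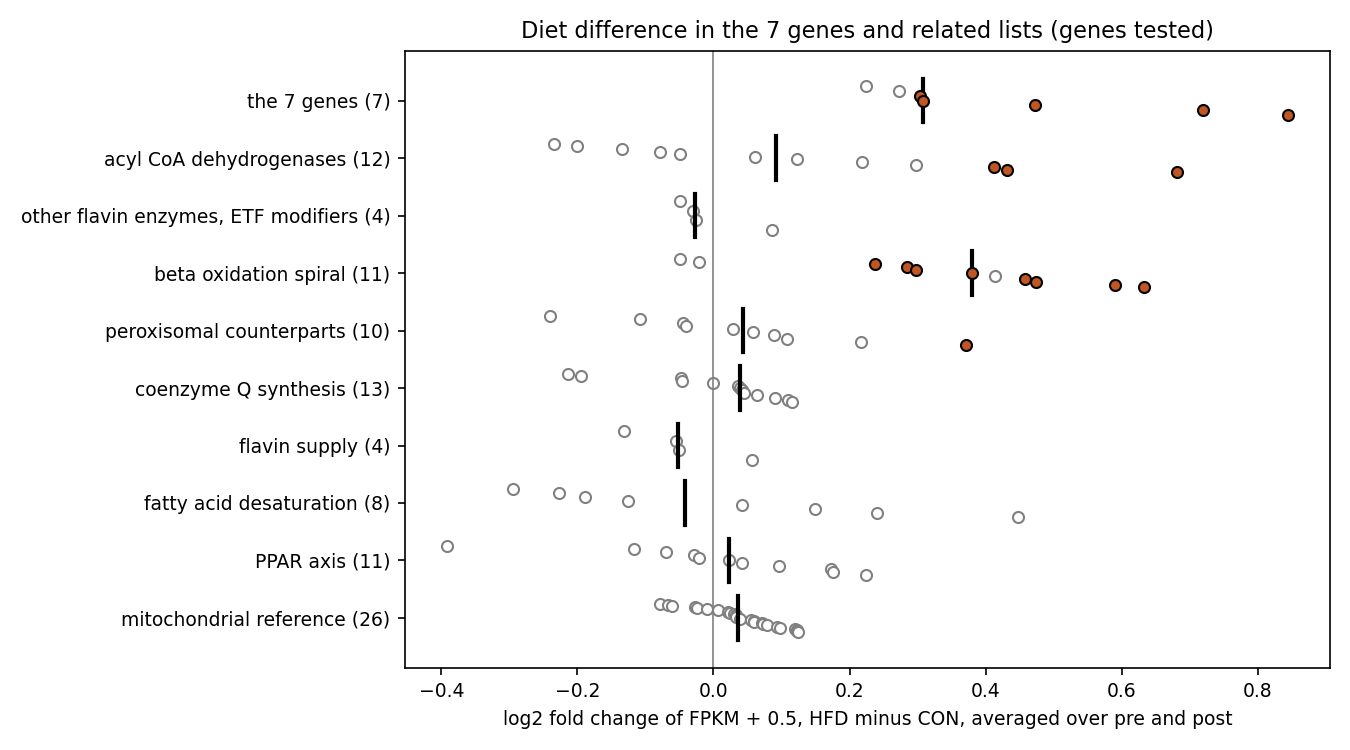
Log2 fold changes of FPKM + 0.5 for HFD minus CON, averaged over pre and post (x axis), for every tested gene of the 7 genes, the 8 pathway lists and the mitochondrial reference list (rows, with the number of genes tested). Filled points passed the test and black bars mark medians: 5 of 7, 3 of 12 acyl-CoA dehydrogenases, 8 of 11 genes of the spiral and 1 of 10 peroxisomal genes are filled, and none elsewhere.

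Other parts of the pathway gave few calls. Of 10 peroxisomal counterparts tested, none passed in either diet comparison in limma, with 2 genes at an unadjusted p under 0.05 in each, and Hsd17b4, the peroxisomal bifunctional enzyme, was called in the averaged diet comparison (0.37, adjusted p = 0.0134). Decr2, the peroxisomal counterpart of Decr1, was not among the called genes. None of 13 genes of coenzyme Q synthesis, the acceptor of ETF dehydrogenase, passed in any comparison in limma, where 0 to 2 had an unadjusted p under 0.05, with medians of 0.054 between diets at rest and -0.018 post-exercise. None of 4 flavin supply genes, which take up riboflavin or make and carry FAD, the cofactor of ETF, passed either, and none had an unadjusted p under 0.05 between diets.

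Of 4 tested genes of other mitochondrial flavin dehydrogenases or of proteins that act on ETF, none passed between diets in limma, and none had an unadjusted p under 0.05, while Prodh (proline dehydrogenase, which passes electrons to coenzyme Q) was called after exercise, averaged over diets (0.67, adjusted p = 0.0495). None of 8 desaturation and elongation genes passed in limma. Their median log2 fold change between diets was -0.20 at rest, with 4 genes at an unadjusted p under 0.05 (Scd1, a stearoyl-CoA desaturase, -0.65, adjusted p = 0.455), and 0.14 post-exercise, with 2 such genes. Of 11 genes of the PPAR axis, the nuclear receptors and coactivators of fatty acid oxidation, none passed between diets, with 2 and 0 genes at an unadjusted p under 0.05 at rest and post-exercise. Ppargc1a, the coactivator PGC-1α, rose with exercise by 2.04 averaged over diets (adjusted p = 2.63e-07).

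Markers of other cells were present and were read beside the diet difference. Summed adipocyte markers were 963 to 1251 FPKM in CON-pre, 1047 to 1174 in HFD-pre, 1056 to 1361 in CON-post and 1045 to 1589 in HFD-post. Of 14 adipocyte genes tested, Lep and Cfd were called in each diet comparison, 1 higher and 1 lower, and Cidea as well in the averaged comparison. Their medians were 0.11 at rest and 0.22 post-exercise, with 6 and 3 genes at an unadjusted p under 0.05. Slow-fibre markers summed to 278 to 839, 310 to 636, 328 to 901 and 347 to 956 FPKM in the same order, with a median log2 fold change of -0.50 between diets at rest and -0.31 post-exercise, none of 10 passing in limma (1 and 0 at an unadjusted p under 0.05). The 13 muscle markers, which are not all of fast fibres, had medians of -0.19 and -0.12, with 3 and 2 of them higher on HFD. None passed (5 and 1 at an unadjusted p under 0.05). Macrophage markers had medians of -0.28 and -0.25, endothelial markers 0.19 and 0.031, red cell markers -0.48 and 0.36, fibroblast markers -0.048 and -0.054 and nerve markers 0.14 and -0.042, with none called between diets in limma and 0 to 2 members of each of these lists at an unadjusted p under 0.05. Nefl, a neurofilament gene, was at 0 in every library. With the adipocyte score as a covariate the diet difference at rest was 0.88 for Ech1 (adjusted p = 0.00123) and 0.72 for Decr1 (adjusted p = 0.00838), and with the slow-fibre score it was 0.91 (adjusted p = 0.000514) and 0.74 (adjusted p = 0.00653). Of the 7 genes, 4 were called at rest with either covariate (Ech1, Decr1, Eci2 and Etfdh). Of all 11256 genes, 27 were called higher there with the adipocyte score and 34 with the slow-fibre score. Post-exercise 2 of the 7 were called with the adipocyte score (Ech1 and Decr1), where 10 of all genes were called higher. With the slow-fibre score 3 of the 7 were (Etfdh as well, 0.50, adjusted p = 0.0308), where 24 of all genes were called higher. Marker lists also moved with exercise. Averaged over diets, 3 of 14 adipocyte, 1 of 10 slow-fibre, 1 of 8 endothelial and 1 of 6 nerve genes were called higher after exercise, against 2.95% of all genes. None of the muscle, macrophage, red cell or fibroblast markers was. Whether each list is specific to its cell type was not tested, nor was the part of the other cells in the diet difference.

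The genes whose levels followed the mean of the 7 most closely over the 16 libraries were Acaa2 (Pearson's r = 0.990), Acadl (0.980), Fabp3 (0.975), Acadvl (0.967) and Cd36 (0.957). Fabp3, the muscle fatty acid binding protein, had 54.7 ± 18.1 FPKM in CON-pre, 133 ± 48.0 in HFD-pre, 80.4 ± 13.7 in CON-post and 186 ± 59.8 in HFD-post. Cd36, a fatty acid transporter, had 65.4 ± 10.1, 102 ± 17.2, 88.7 ± 6.03 and 122 ± 11.8 FPKM in the same order. Pak1, a kinase, had the lowest r (-0.955), with 8.41 ± 1.47, 5.67 ± 0.563, 6.98 ± 0.286 and 4.19 ± 0.627 FPKM. These correlations are descriptions that include the differences between groups.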

How the data were processed

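Quadriceps RNA of 16 mice was sequenced from stranded mRNA libraries. Per the labels and the Methods, the authors checked reads with FastQC, aligned them with TopHat and estimated expression with Cufflinks (versions not given in the sources used here). The deposited values are FPKM, scaled by the authors for transcript length and library size, so no count test was used. The Methods name mm9, but listed loci of 3 members overlapped GRCm38 genes (3 of 3) and not mm9 genes (0 of 3), so positions and promoters are from RefSeq GRCm38.p6. Of 24487 entries, 27 named as dates (0.0771% of FPKM) were left out and 260 symbols in several entries were summed. Every column of sample values was used.

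limma 3.58.1 (R 4.3.3) was fitted to log2(FPKM + 0.5) in 1 model of 4 groups with a mean-variance trend, for genes averaging 0.5 FPKM or more, with Benjamini-Hochberg adjustment over all 11256. Fold changes are on the log2(FPKM + 0.5) scale, which understates changes of low genes. Ratios were compared with exact permutation tests (scipy 1.17.1). The code was tested on simulated data. The members, lists and tests were chosen with earlier results of these data known. All 7 members were named, with up to 4 genes of lowest p per pathway list and comparison, and the genes nearest to the members' mean. Crat, Lep, Cfd, Cidea, Decr2, Cs, Atp5a1, Ckm, Myh4 and Nefl were named outside this rule, after their values were seen. Alternatives covered pseudocount, filter, scaling, variance model, groups fitted, replicate block, marker score covariates, repeated symbols and each library left out. Metabolomics and qPCR were not analysed here. Results for 1 listed gene were left out.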

Additional observations from a re-analysis of the deposited data

Results flagged for a closer look

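4 of 44 groups of 4 values held a library whose gap to its nearest neighbour, relative to the range of the group, exceeded Dixon's critical value, and chance marks about 1 in 20 groups. In CON-pre, Decr1 was low in replicate 1 (25.7 FPKM, with the other 3 libraries at 29.2 to 29.7 FPKM). In HFD-pre, Eci1 was high in replicate 4 (75.7 FPKM, with the other 3 libraries at 56.1 to 58.2 FPKM), and the same library had the highest ratio of Eci1 to Eci2 of its group (2.45). In HFD-post, the ratio of Ech1 to Decr1 was highest in replicate 4 (4.25). Causes were not tested.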

How the results depend on the processing

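15 alternatives and 16 fits without 1 library each were run. The diet calls for Ech1 and Decr1 held in all of them except post-exercise with only the 2 groups compared. There 0 of the 7 genes were called, and Ech1 and Decr1 both had an adjusted p of 0.109. In that fit 2 of the 11256 genes were called higher, against 14 in the main fit. The number of the 7 genes called was 2 to 4 at rest without 1 library, 2 to 2 post-exercise, 4 to 5 averaged over exercise states and 0 to 3 for exercise averaged over diets. Of all 11256 genes, these fits called 13 to 30, 5 to 14, 46 to 59 and 203 to 433 higher, in the same order. With the mitochondrial score as covariate 5 of the 7 were called at rest and 4 post-exercise, where 31 and 20 of all genes were called higher. With array weights 1 of the 7 was called for exercise averaged over diets, where 457 of all genes were called higher. Scaling by upper quartiles, median of ratios or quantiles ended the call for Eci2 at rest (log2 fold change 0.33, 0.34 and 0.33 against 0.30, adjusted p = 0.0985, 0.0942 and 0.0866).

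The labels do not say whether the replicate numbers pair the mice. Of 24 pairs of libraries with the same number, 5 had a correlation of deviations above 0.1 (-0.220 to 0.213). Libraries of other numbers had -0.221 to 0.212, and these like ranges cannot show whether mice shared a cage or a day. With a replicate block, 3 genes were still called at rest, Etfdh (adjusted p = 0.0383) in place of Eci2 (adjusted p = 0.0938).

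Directions that turned were all of small differences that passed no test. For CON-post against CON-pre, Decr1 was -0.0034 with the mitochondrial covariate. For the interaction, upper-quartile, median-of-ratios, quantile and array-weight fits gave -0.020, -0.026, -0.014 and -0.062 for Decr1, -0.025, -0.031, -0.017 and -0.016 for Eci2 and -0.034, -0.040, -0.034 and -0.026 for Etfdh. Etfb was -0.00083 with median-of-ratios scaling, Eci1 was 0.021 with the adipocyte covariate, and Etfdh was -0.015 with the slow-fibre and -0.00079 with the mitochondrial covariate. Without 1 library each, Decr1 was -0.0015 to 0.17 for HFD-post against HFD-pre, and the interaction was -0.14 to 0.018 for Ech1, -0.081 to 0.091 for Decr1, -0.085 to 0.095 for Eci1, -0.031 to 0.039 for Eci2, -0.17 to 0.053 for Etfa, -0.013 to 0.10 for Etfb and -0.094 to 0.068 for Etfdh. The causes were not tested. FPKM alone carries no depth, and counting error was not estimated for any value.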
